A study of Saccharomyces cerevisiae with 12 samples.

Results

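The 10 genes described here encode the subunits of the cytochrome bc1 complex (complex III of the respiratory chain) of the budding yeast Saccharomyces cerevisiae. They were chosen by their place in the complex and not by a measured value, although earlier results of these data were known. They are 10 of the 6607 genes with a row of values. COB (Q0105) lies in mitochondrial DNA, and the 9 others are nuclear: COR1 (YBL045C), QCR2 (YPR191W), CYT1 (YOR065W), RIP1 (YEL024W), QCR6 (YFR033C), QCR7 (YDR529C), QCR8 (YJL166W), QCR9 (YGR183C) and QCR10 (YHR001W-A). All 12 libraries came from the haploid alpha strain BY4742, whose HIS3, LEU2, LYS2 and URA3 genes are disrupted in every group. Cells were grown to mid-log phase (an optical density of about 0.5) with 2% dextrose, in minimal medium (yeast nitrogen base with amino acids) or in the rich medium YEPD. Total RNA, with its ribosomal RNA and unfragmented, was incubated with the alkyne 4-pentynol and with ADP-ribosylcyclase (ADPRC), or taken through a mock reaction. The enzyme exchanges the nicotinamide of an NAD cap at the 5' end of an RNA for the alkyne, to which biotin is joined by click chemistry for capture on streptavidin beads. The 4 groups of 3 libraries each were minimal ADPRC, minimal mock, YEPD ADPRC and YEPD mock, and the comparison of ADPRC with mock asks which RNAs are enriched through an NAD cap. Whether replicates came from separate cultures is not stated in the labels. The p-values therefore rest on the spread among these libraries alone, which may be technical.

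The complex takes electrons from ubiquinol, passes them to cytochrome c and moves protons across the inner mitochondrial membrane. Electrons travel through 3 redox subunits, which are cytochrome b (COB), the Rieske iron-sulfur protein (RIP1) and cytochrome c1 (CYT1). COR1 and QCR2 are the large core proteins that face the matrix, and QCR6 to QCR10 are small subunits without redox groups. Yeast grown on dextrose represses much of respiration, and the complex is needed on carbon sources that cannot be fermented.

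Libraries held 3246900 to 13958188 reads, recovered from the deposited values. Open reading frames within the ribosomal DNA took 31.7% ± 1.34 of them in minimal ADPRC, 52.9% ± 2.02 in minimal mock, 75.2% ± 8.15 in YEPD ADPRC and 80.8% ± 1.10 in YEPD mock libraries (SD, n = 3). YEPD ADPRC replicate 2 stood apart from its group, with 65.9% of reads in these frames, and values without it are given beside the results it moved. Frames on the Watson strand of the ribosomal DNA took 0.0113% to 0.0460% of reads in minimal medium and 52.3% to 63.5% in YEPD libraries. A difference in library preparation or counting therefore cannot be told apart from the medium. Of the genes deleted in the strain, LEU2, LYS2 and URA3 were at 0 in all 12 libraries, whereas HIS3, which keeps part of its sequence in this strain, had 89.5 to 238 normalized counts. One YEPD ADPRC column carries no replicate number and is called unnumbered. Values are normalized counts, which are read counts divided by 1 factor per library, and they are given for replicates 1, 2 and 3 in turn (unnumbered, 2 and 3 in YEPD ADPRC).

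In minimal medium the subunits went in opposite directions after ADPRC. COB and both core proteins fell, the Rieske protein RIP1 and the small subunits QCR7, QCR9 and QCR10 rose, and CYT1, QCR6 and QCR8 did not pass the test. In YEPD the fall of COB was the only change that passed. Counted over the complex, 4 members were higher and 3 lower in minimal medium, where 14.2% of the 5490 genes tested were higher and 14.6% lower (28.8% in either direction). In YEPD 0 members were higher and 1 was lower, where 4.92% of all genes tested were higher and 0.546% lower (5.46% in either direction). The median log2 change of the members was 0.24 in minimal medium against 0.01 over all genes tested. Unless another tool is named, adjusted p-values are from limma on log2(value + 1) with Benjamini-Hochberg adjustment over those genes, two-sided, at a threshold of 0.05. Errors beside log2 changes are standard errors, and fold changes of low genes are understated on this scale. A change is one of captured RNA relative to the other RNAs of a library. Within a medium, ADPRC and mock reactions were run on RNA already extracted from cells grown alike. Between media, a change in RNA per cell cannot be told apart from one in the share of it that was captured.

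**Figure D1:**
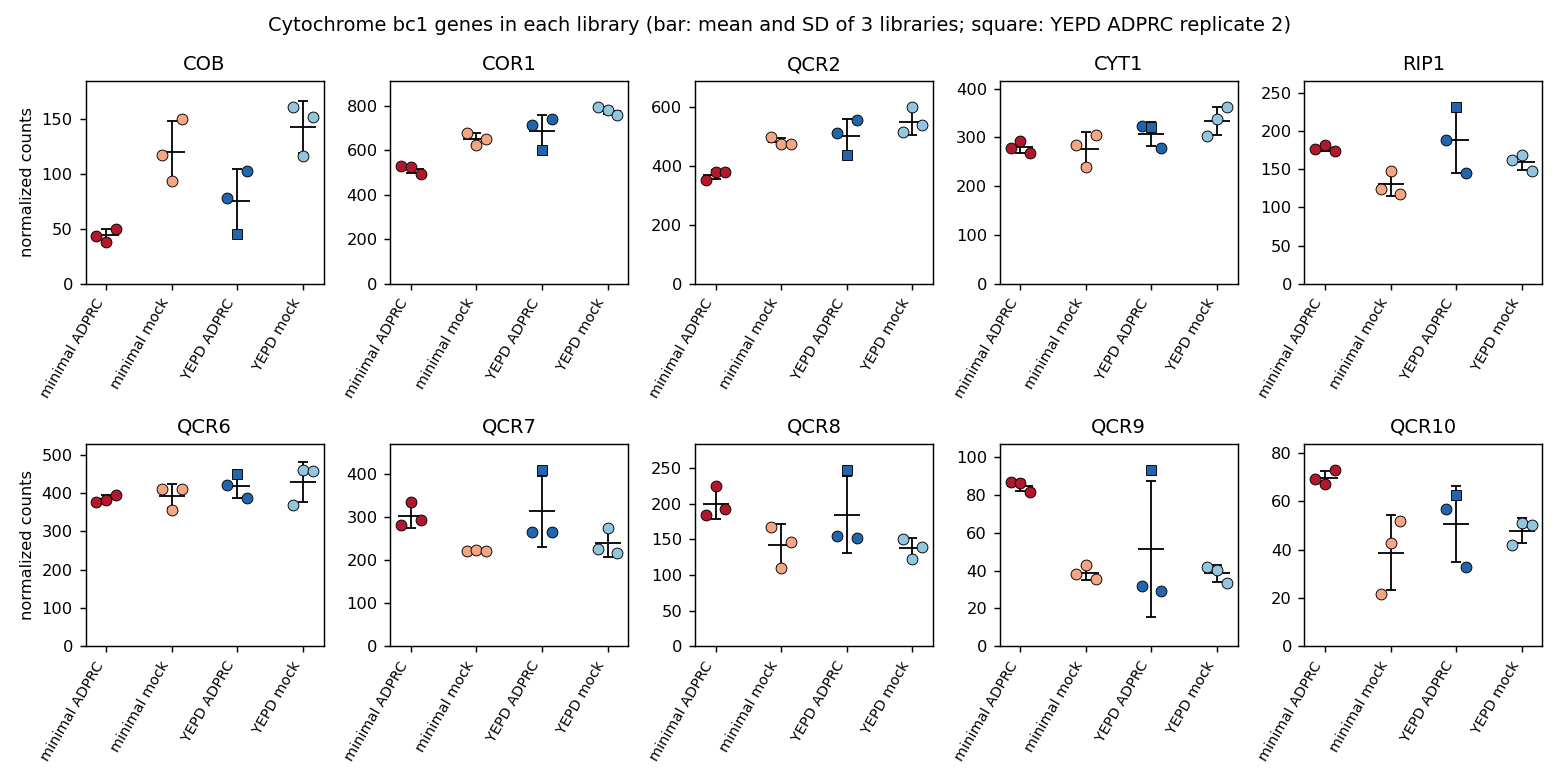
Normalized counts (vertical axes, starting at 0) of each of the 10 genes in each of the 12 libraries, by group; points are libraries, bars the mean and SD of 3 libraries, and the square is YEPD ADPRC replicate 2. All COB points lie lower in ADPRC than in mock libraries of the same medium, and the square lies above the other YEPD points for QCR7, QCR8 and QCR9.

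COB encodes cytochrome b, the only subunit of the complex made inside mitochondria, which carries the sites where ubiquinol is oxidized and ubiquinone reduced. It had 43.7, 38.4 and 50.04 normalized counts in minimal ADPRC, against 118, 94.1 and 150.4 in minimal mock libraries. Every ADPRC library thus lay below every mock library. The log2 change was -1.42 ± 0.26 (adjusted p = 0.0031, n = 3 per group by limma), the sixth lowest of the 5490 genes (rank 6). In YEPD COB had 77.9, 45.1 and 103 in ADPRC, against 161, 116 and 152 in mock libraries. The groups again did not overlap, and replicate 2 was the lowest library of the ADPRC group. The change in YEPD was -0.98 ± 0.26 (adjusted p = 0.0403 by limma), also rank 6 from the lowest. Reads behind these values were few, from 60 to 172 per library.

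The fall of COB in minimal medium passed the test under all 15 other settings (log2 changes of -1.52 to -0.69) and without any 1 of the 12 libraries (-1.58 to -1.24). In YEPD the call was less secure. Without ADPRC replicate 2 the change was -0.66 (adjusted p = 0.0268 by limma). The call was lost without YEPD mock replicate 1 (-0.89, adjusted p = 0.17), 2 (-1.12, adjusted p = 0.0648) or 3 (-0.93, adjusted p = 0.129) by limma. It was also lost, with the change itself the same, without minimal ADPRC replicates 1, 2 or 3 or minimal mock replicate 1 (adjusted p = 0.0587 to 0.0651 by limma), libraries that only enter the shared estimate of the spread.

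Frames annotated within COB introns, BI2 (Q0110), BI3 (Q0115) and BI4 (Q0120), encode maturases that take part in splicing of the COB transcript. All 3 were at 0 in all 12 libraries. In RefSeq R64 they share their start with COB and overlap it, and how reads in overlapping genes were counted is not given in the sources used here, so the zeros cannot be read as absence of these RNAs.

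COR1 and QCR2 are related to the subunits of the mitochondrial processing peptidase and hold the matrix side of the complex together. COR1 had 528, 524 and 494 normalized counts in minimal ADPRC, against 678, 624 and 652 in minimal mock libraries. QCR2 had 350.3, 378 and 379 in minimal ADPRC, against 497, 475 and 473 in minimal mock libraries. The groups did not overlap for either gene, and both changes were alike in size. COR1 fell by 0.34 on the log2 scale (SE 0.10, adjusted p = 0.0227) and QCR2 fell by 0.38 (SE 0.10, adjusted p = 0.0189) by limma. In YEPD COR1 had 713, 603 and 743 in ADPRC, against 793, 783 and 761 in mock libraries. These COR1 groups were still apart, but the change of -0.19 ± 0.10 did not pass (adjusted p = 0.215 by limma). QCR2 had 509, 436 and 553 in YEPD ADPRC, against 513, 597 and 536 in YEPD mock libraries, which overlapped (-0.14 ± 0.10, adjusted p = 0.391 by limma). Replicate 2 was the lowest YEPD ADPRC library for both core proteins.

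CYT1 encodes cytochrome c1, the heme protein that hands electrons to cytochrome c. It had 279, 293 and 269 normalized counts in minimal ADPRC, against 284, 239 and 306 in minimal mock libraries. The groups overlapped, and the log2 change of 0.03 had a 95% interval of -0.22 to 0.27. In YEPD it had 323, 321 and 279 in ADPRC, against 303, 337 and 362 in mock libraries (-0.12, 95% interval -0.36 to 0.13). In both media the groups of CYT1 thus overlapped, and the interval of its change held both a fall and a rise.

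RIP1 encodes the Rieske protein, whose iron-sulfur cluster takes the first electron from ubiquinol. It had 177, 182 and 174 normalized counts in minimal ADPRC, against 125, 148 and 118 in minimal mock libraries. All ADPRC libraries were higher, and the log2 change was 0.45 ± 0.15 (adjusted p = 0.0401 by limma). In YEPD RIP1 had 189, 231 and 145 in ADPRC, against 163, 169 and 149 in mock libraries. Here the groups overlapped, replicate 2 was the highest ADPRC library, and the change of 0.21 ± 0.15 did not pass (adjusted p = 0.367 by limma). The RIP1 call in minimal medium held in 4 of 12 fits with 1 library left out, and with the length trend across genes removed its change was 0.08 (adjusted p = 0.678 by limma).

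Among the small subunits, QCR9, a small membrane subunit, had the largest rise of the complex in minimal medium. It had 86.8, 86.4 and 81.5 normalized counts in minimal ADPRC, against 38.0, 42.8 and 35.8 in minimal mock libraries. The groups were far apart, and the log2 change was 1.11 ± 0.32 (adjusted p = 0.0225 by limma), rank 104 from the highest of 5490. QCR9 had 31.7, 93.1 and 29.4 in YEPD ADPRC, against 42.1, 40.1 and 33.6 in YEPD mock libraries. Replicate 2 was thus near the minimal ADPRC level, while the other YEPD ADPRC libraries lay below all mock libraries of that medium. The YEPD change was 0.20 ± 0.32 (adjusted p = 0.700) and turned to -0.32 without replicate 2 (adjusted p = 0.36), not past the threshold by limma in either case. QCR9 rested on 20 to 30 reads in minimal mock libraries and on 132 to 163 in minimal ADPRC libraries.

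QCR10, a small subunit that the complex can work without, had 69.2, 67.2 and 72.9 normalized counts in minimal ADPRC, against 21.7, 42.8 and 51.9 in minimal mock libraries. Every ADPRC library was higher, although the mock libraries spread widely on 12 to 30 reads each. The log2 change was 0.92 ± 0.29 (adjusted p = 0.0301 by limma). Without minimal mock replicate 1 it was 0.56 (adjusted p = 0.114 by limma). In YEPD QCR10 had 56.8, 62.5 and 32.8 in ADPRC, against 42.1, 51.2 and 50.4 in mock libraries, which overlapped (0.03 ± 0.29, adjusted p = 0.953 by limma).

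QCR7 and QCR8 join cytochrome b early in the assembly of the complex. QCR7 had 281, 334 and 293 normalized counts in minimal ADPRC, against 221, 224 and 220.2 in minimal mock libraries. The mock libraries were nearly equal, all ADPRC libraries were higher, and the log2 change was 0.45 ± 0.16 (adjusted p = 0.0468 by limma). QCR8 had 184, 225 and 192 in minimal ADPRC, against 168, 109.8 and 147 in minimal mock libraries. Its groups did not overlap either, but its change of 0.51 ± 0.19 missed the threshold (adjusted p = 0.0591 by limma).

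In YEPD QCR7 had 266, 409 and 265 in ADPRC, against 225, 274.9 and 217 in mock libraries (0.36 ± 0.16, adjusted p = 0.148 by limma). QCR8 had 155, 247 and 153 in YEPD ADPRC, against 151, 122 and 139 in YEPD mock libraries (0.39 ± 0.19, adjusted p = 0.194 by limma). Both were highest in ADPRC replicate 2, without which the YEPD changes of QCR7 and QCR8 were 0.16 and 0.17. Without that replicate the YEPD change was 0.05 for RIP1, -0.10 for COR1, -0.04 for QCR2 and -0.14 for QCR10, and none of these passed (adjusted p = 0.487 to 0.881 by limma). QCR6, the acidic hinge protein next to cytochrome c1, had 376, 382 and 395 in minimal ADPRC, against 410.4, 355 and 409.9 in minimal mock libraries. Its groups overlapped in both media, with a log2 change of -0.02 in minimal medium (95% interval -0.26 to 0.21) and -0.03 in YEPD (95% interval -0.27 to 0.21). QCR6 had 421, 449 and 387 in YEPD ADPRC, against 369, 459 and 458 in YEPD mock libraries.

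**Figure D2:**
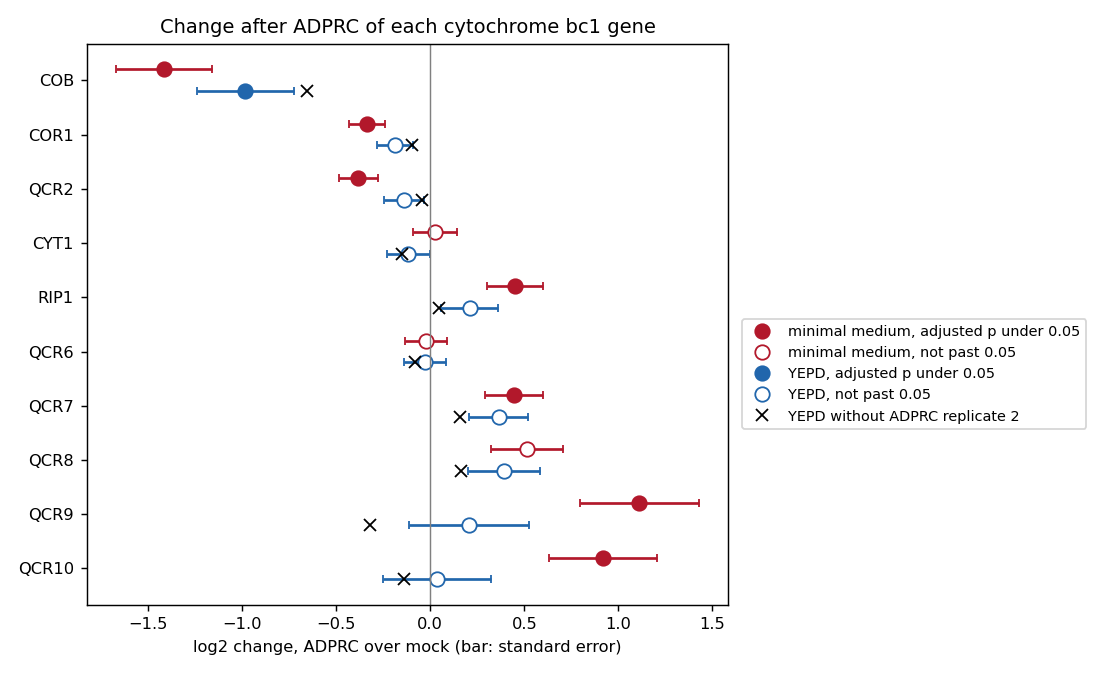
The log2 change after ADPRC (horizontal axis, ADPRC over mock; bars are standard errors) of each gene in minimal medium (upper symbol of each pair) and YEPD (lower symbol); filled symbols passed an adjusted p of 0.05 and crosses show YEPD without ADPRC replicate 2. COB lies at -1.42 and -0.98, and QCR9 lies at 1.11 in minimal medium but at 0.20 in YEPD, or -0.32 without that replicate.

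In minimal medium the ADPRC and mock libraries of 8 members did not overlap, 5 high and 3 low. Over all genes tested, the groups of 54.8% did not overlap, 27.5% high and 27.3% low. In YEPD these were 3 members (QCR8 high, COB and COR1 low), where the share of all genes was 32.2%, 15.2% high and 17% low. Apart from COB, each call in minimal medium was lost in some of the 12 fits with 1 library left out. The changes in these fits kept their direction, from -0.37 to -0.31 for COR1, -0.40 to -0.34 for QCR2, 0.38 to 0.54 for RIP1, 0.37 to 0.50 for QCR7, 1.06 to 1.18 for QCR9 and 0.56 to 1.17 for QCR10. COR1 was lost without minimal ADPRC replicates 1, 2 or 3 or minimal mock replicates 1 or 3 (adjusted p = 0.0571 to 0.0744 by limma). QCR2 was lost without minimal ADPRC replicates 1 or 2 or minimal mock replicates 1 or 2 (adjusted p = 0.052 to 0.0772 by limma). QCR10 was lost without any 1 of the minimal ADPRC libraries or minimal mock replicates 1 or 2 (adjusted p = 0.0541 to 0.114), and QCR9 without any 1 of the 6 minimal libraries (adjusted p = 0.0527 to 0.0723) by limma. RIP1 was lost without any 1 of the minimal ADPRC or YEPD mock libraries or minimal mock replicates 1 or 3 (adjusted p = 0.0528 to 0.12 by limma). QCR7 was lost without any 1 of the minimal or YEPD mock libraries (adjusted p = 0.0532 to 0.162 by limma). QCR8 passed without YEPD ADPRC replicate 2 (adjusted p = 0.00179) or 3 (adjusted p = 0.0473) by limma. With edgeR and with DESeq2, each run on 11 libraries, 2 members were higher and 3 lower, and RIP1 and QCR7 did not pass (adjusted p = 0.062 to 0.0841). The counts were the same with limma without YEPD mock replicate 2, the library those fits leave out (RIP1 adjusted p = 0.0552, QCR7 adjusted p = 0.0532), so the tool and the library cannot be told apart here.

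With the same total per library in place of the authors' scaling, the median of all genes rose by 0.44 in minimal medium and COR1 and QCR2 were at 0.10 and 0.05, so their direction holds only relative to that shift.

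The ADPRC change was next compared between the media. The change of QCR9 was higher in minimal medium by 0.91 ± 0.45 on the log2 scale and that of QCR10 by 0.88 ± 0.40, whereas that of COB was lower by a log2 difference of -0.43 ± 0.36. None of these differences passed (adjusted p = 0.625, 0.588 and 0.83 by limma). Past the threshold were 0 members and 0 of the 5490 genes (0%), by limma as by edgeR and DESeq2, while 1 member (QCR10) and 462 genes had an unadjusted p under 0.05 by limma. The differences of the other 7 members ranged from -0.24 for QCR2 to 0.24 for RIP1. This outcome rested on YEPD ADPRC replicate 2. Without it the differences of QCR9 (1.43, adjusted p = 0.000383), QCR10 (1.06, adjusted p = 0.0473), COB (-0.76, adjusted p = 0.0317) and QCR2 (-0.34, adjusted p = 0.0334) passed by limma, beside 492 higher and 556 lower of all genes. That library also had the lowest share of reads in ribosomal DNA frames of its group, and the part of this in the result was not tested.

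Between media, COR1 and QCR2 were lower in minimal ADPRC than in YEPD ADPRC libraries, and no member passed between the mock groups. In ADPRC libraries 2 members were lower and 1 was higher, where 25.7% of all genes tested were lower and 7.05% higher (32.8% in either direction). COR1 was lower by a log2 difference of -0.41 ± 0.10 (adjusted p = 0.00643) and QCR2 of -0.43 ± 0.10 (adjusted p = 0.00777) by limma, and for both every minimal library lay below every YEPD library. Groups did not overlap for these 2 members low and for QCR10 high, where 31.8% of all genes did not overlap low, 8.38% high and 40.2% in either direction. The median of all genes was itself -0.19 in this comparison. With TMM scaling, which brought that median near 0, the differences of COR1 and QCR2 were -0.21 (adjusted p = 0.127) and -0.23 (adjusted p = 0.122) by limma, and neither passed with edgeR or DESeq2. QCR9 was higher by 0.92 ± 0.32 (adjusted p = 0.0404 by limma) although its groups overlapped, and leaving out any 1 of the 11 libraries other than YEPD ADPRC replicate 2 ended this call (0.63 to 0.95, adjusted p = 0.0527 to 0.171 by limma), while the difference was 1.44 without that replicate. COB had a difference of -0.69 ± 0.26 (adjusted p = 0.0524 by limma), or -1.02 without YEPD ADPRC replicate 2 (adjusted p = 3.88e-05 by limma). Without that replicate QCR10 (0.68, adjusted p = 0.0386) and QCR8 (0.37, adjusted p = 0.0292) also passed as higher by limma, so that 3 members were higher and 3 lower. Of the 5490 genes tested, 1011 were higher and 2162 lower in that fit.

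In mock libraries, minimal against YEPD, 0 members passed by limma, edgeR or DESeq2 (2 had an unadjusted p under 0.05 by limma), where 7.29% of all genes were higher and 22.4% lower (29.7% in either direction) by limma. The groups of COR1, QCR2 and RIP1 did not overlap and were low, where 41.1% of all genes were low without overlap and 54.7% did not overlap in either direction. The differences ran from -0.38 for QCR10 to 0.03 for QCR8, and the median of all genes was -0.20. COR1 (-0.26 ± 0.10, adjusted p = 0.0592) and CYT1 (-0.28 ± 0.11, adjusted p = 0.0846) came nearest by limma. Without YEPD ADPRC replicate 2, which enters only the estimate of the spread here, COR1, QCR2, CYT1 and RIP1 passed as lower (adjusted p = 0.00205, 0.0404, 0.0183 and 0.0322 by limma), and COR1 also passed without YEPD ADPRC replicate 3 (adjusted p = 0.0493 by limma). Of the 5490 genes tested, 2084 were lower in the fit without replicate 2 and 1307 in the fit without replicate 3. With the same total per library all 10 members were higher in minimal medium in both comparisons of media, because that scaling moved the median of all genes to 1.28 in ADPRC and 1.03 in mock libraries. Of the 5490 genes tested, 5192 were higher in ADPRC and 5004 in mock libraries at that scaling.

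Levels were compared between genes as normalized counts per kilobase of the span from start to stop in RefSeq R64. COB was left out of this order because its span of 7108 bases is mostly introns, and the spans of QCR9 and QCR10 also hold an intron. QCR6 was the highest in every group, with 866 ± 22.0 per kilobase in minimal ADPRC, 882 ± 71.9 in minimal mock, 944 ± 70.6 in YEPD ADPRC and 966 ± 118 in YEPD mock libraries. QCR9 had the lowest mean in every group, a place that depends on its intron-containing span of 414 bases, with 205 ± 7.09, 93.8 ± 8.60, 124 ± 87.2 and 93.2 ± 10.8 per kilobase in the same groups (SD, n = 3). Its range overlapped with that of QCR10 in minimal mock and YEPD ADPRC libraries. In minimal ADPRC libraries the order was QCR6, QCR7, QCR8, COR1, QCR2, CYT1, RIP1, QCR10 and QCR9, and the first 3 overlapped with their neighbours. In minimal mock libraries the order was the same, and there QCR7 overlapped with QCR8, QCR8 with COR1, and QCR10 with QCR9. In YEPD ADPRC libraries it was again the same, with only QCR2 and CYT1, and RIP1 and QCR10, apart from each other. In YEPD mock libraries QCR8 came after QCR2 instead, with which it overlapped, and QCR7 overlapped with COR1.

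Reads of the 10 members together made up 82.4 ± 1.70 per 100000 reads outside ribosomal DNA frames in minimal ADPRC, against 90.8 ± 5.0 in minimal mock libraries. In YEPD they made up 96.0 ± 10.8 in ADPRC, against 108 ± 3.45 in mock libraries (SD, n = 3). The balance within the complex is given as ratios of members, which need no scaling between libraries. QCR9 had 16.4, 16.5 and 16.5 reads per 100 reads of COR1 in minimal ADPRC, against 5.60, 6.85 and 5.49 in minimal mock libraries. In YEPD it had 4.45, 15.4 and 3.96 in ADPRC, against 5.31, 5.13 and 4.41 in mock libraries, so that replicate 2 alone was at the minimal ADPRC level. QCR10 per 100 reads of COR1 came to 13.6 ± 1.05 in minimal ADPRC, against 6.01 ± 2.49 in minimal mock libraries. COB had 1.85 ± 0.287 reads per 100 reads of the 9 nuclear members in minimal ADPRC, against 5.07 ± 1.06 in minimal mock libraries. In YEPD this COB value was 2.83 ± 1.20 in ADPRC, against 5.31 ± 1.08 in mock libraries. These pairs of genes were chosen after their values were seen, and they are given without a test.

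COB also moved against other mitochondrial RNAs. It had 6.66 ± 0.786 reads per 100 reads of COX2, the gene of oxidase subunit II, in minimal ADPRC, against 56.8 ± 5.61 in minimal mock libraries. In YEPD the COB value per 100 reads of COX2 was 10.3 ± 2.70 in ADPRC, against 60.8 ± 2.13 in mock libraries. Per 100 reads of COX1, the gene of oxidase subunit I, COB had 20.5 ± 1.59 in minimal ADPRC, against 31.4 ± 1.91 in minimal mock libraries. In YEPD COB per 100 reads of COX1 was 18.6 ± 1.42 in ADPRC, against 20.5 ± 0.783 in mock libraries (SD, n = 3 throughout). The ratio of COB to COX2 separated ADPRC from mock libraries in both media, while that to COX1 overlapped in YEPD.

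**Figure D3:**
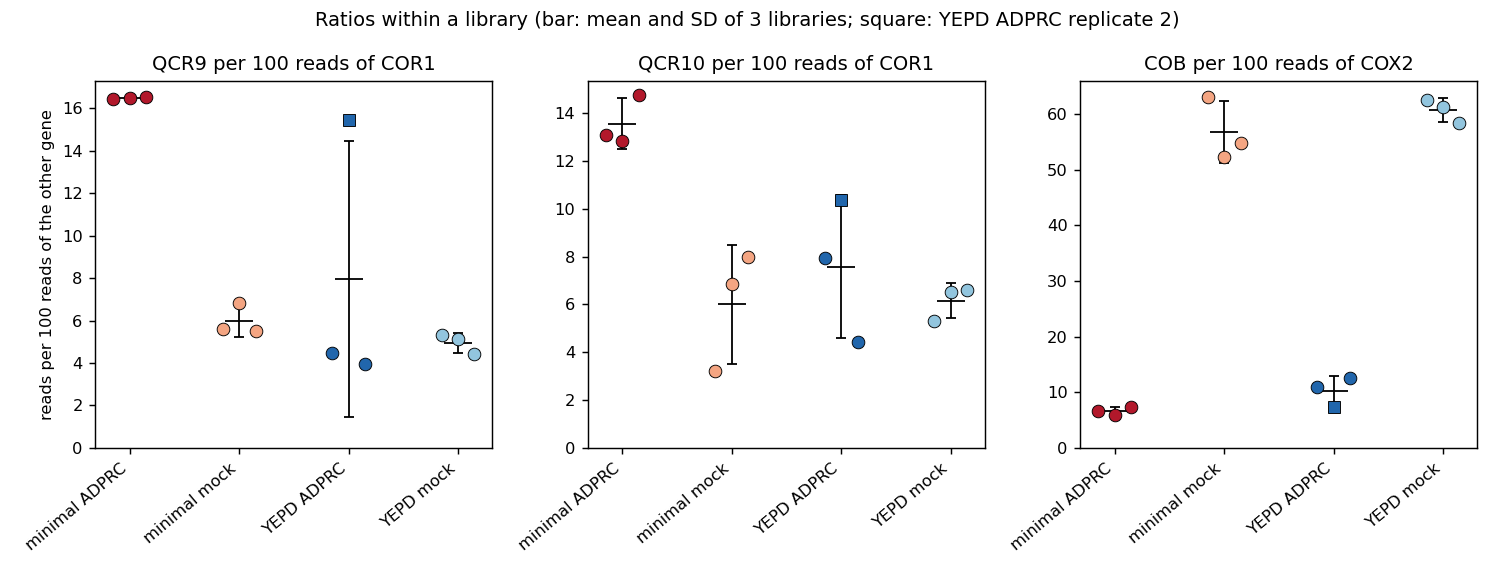
Reads of QCR9 and of QCR10 per 100 reads of COR1, and of COB per 100 reads of COX2 (vertical axes, starting at 0), in each of the 12 libraries by group; bars are the mean and SD of 3 libraries and the square is YEPD ADPRC replicate 2. The QCR9 ratio of that replicate, 15.4, lies beside the minimal ADPRC libraries, and the COB ratio is at most 12.6 in ADPRC and at least 52.4 in mock libraries.

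The change after ADPRC went with gene length across all genes, and the members followed this. In minimal medium Spearman's rho between log2 change and length was -0.77 over the 9 nuclear members and -0.68 over 5423 genes with a length. In YEPD it was -0.83 and -0.69. The points share libraries, and genes are not independent, so these values are descriptions. Genes of under 400 bases, which include QCR7, QCR8 and QCR10, had a median log2 change of 0.54 in minimal medium. Those of 400 to 800 bases, with RIP1, QCR6 and QCR9, had a median of 0.40, and those of 800 to 1600 bases, with COR1, QCR2 and CYT1, one of 0.11. QCR9, QCR10 and RIP1 thus lay above the median of their length range, and QCR6, QCR7, QCR8, CYT1 and both core proteins below theirs. With the length trend removed in each library, COB (-0.69, adjusted p = 0.019), COR1 (-0.34, adjusted p = 0.0141) and QCR2 (-0.51, adjusted p = 0.0058) still fell in minimal medium, and QCR6 was then lower too (-0.50, adjusted p = 0.00732) by limma. None of the rises passed any longer. RIP1 was at 0.08, QCR7 at -0.07, QCR10 at 0.35 and QCR9 at 0.62 (adjusted p = 0.0746 by limma). In YEPD without the trend, QCR6 was the 1 member past the threshold (-0.44, adjusted p = 0.0368 by limma), and COB was at -0.43 (adjusted p = 0.22 by limma). RIP1, QCR7, QCR8, QCR9 and QCR10 were then between -0.48 and -0.09 in YEPD and did not pass (adjusted p = 0.341 to 0.746 by limma). In both media the values of COB, QCR9 and QCR10 without the trend depend on the intron-containing spans used as their lengths.

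**Figure D4:**
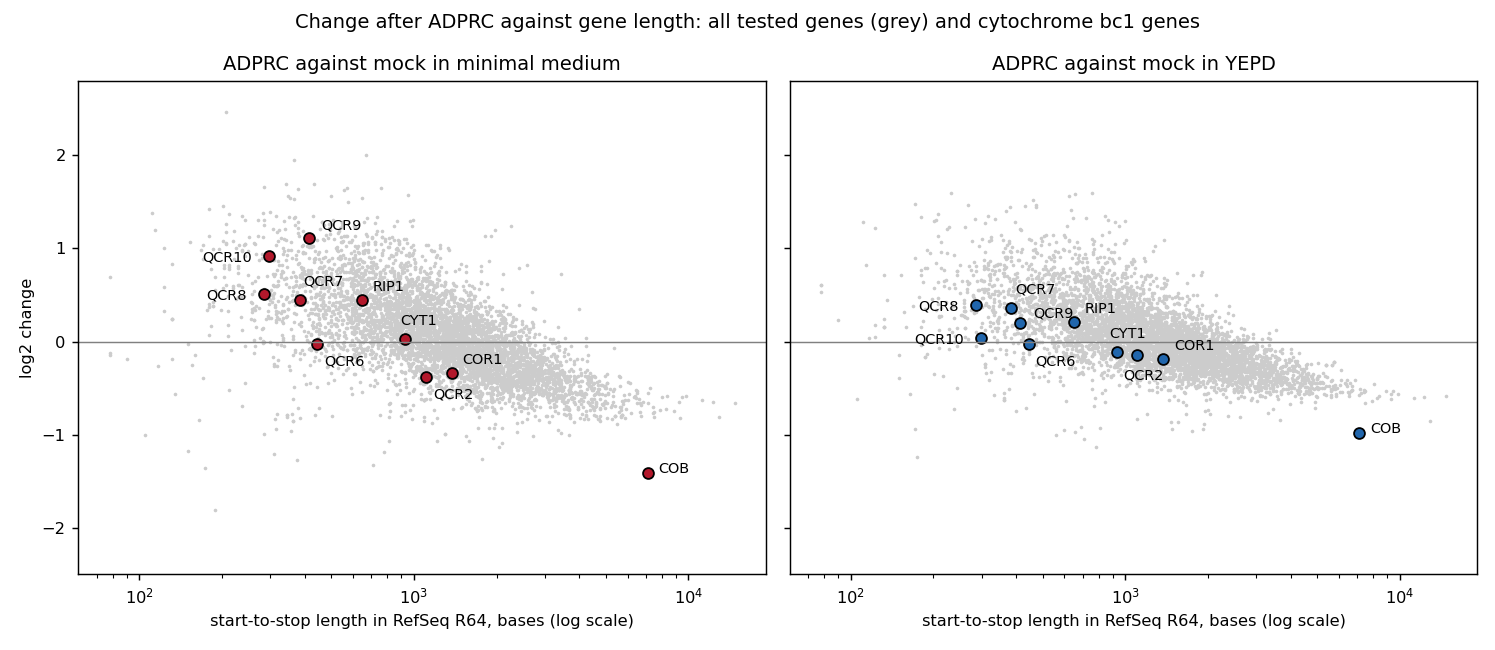
The log2 change after ADPRC (vertical axis) against the length from start to stop (horizontal axis, log scale) in minimal medium (left) and YEPD (right); grey points are tested genes with a length and large points the 10 genes of the complex. Spearman's rho over the 9 nuclear members was -0.77 in minimal medium and -0.83 in YEPD, and COB is the lowest of the 10. Among the exceptions to the order by length, QCR6 in minimal medium and QCR10 in YEPD lie below some longer members. In minimal medium QCR7, QCR8 and QCR10 also lie below the longer QCR9.

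Genes that work with the complex were read from the same tests, in lists drawn up by function. Of 16 genes for assembly of the complex and expression of COB, 2 rose and 2 fell in minimal medium. Counts in this and the other lists stand beside 14.2% of all genes higher and 14.6% lower in minimal medium, and 4.92% and 0.546% in YEPD, and nothing particular to a list was tested. IMP1, a subunit of the inner membrane peptidase, rose by 1.65 ± 0.26, and CBP6, which activates translation of COB mRNA, by 0.87 ± 0.29. CBP1, which protects COB mRNA from decay, fell (-0.72 ± 0.18), as did NAM2 (-0.54 ± 0.15), the mitochondrial leucyl-tRNA synthetase that also takes part in splicing of a COB intron. Of 8 genes that feed electrons into ubiquinol, the dehydrogenase subunit SDH4 rose by 1.24 ± 0.22, whereas the external NADH dehydrogenase NDE1 (-0.49 ± 0.11), SDH1 (-0.44 ± 0.11) and the glycerol-3-phosphate dehydrogenase GUT2 (-0.39 ± 0.12) fell. Of 3 genes of cytochrome c, which accepts the electrons, CYC1 rose (0.82 ± 0.28). MAS1, a subunit of the processing peptidase to which the core proteins are related, fell (-0.38 ± 0.12), and MAS2, the other subunit, did not pass. Of the 5 HAP activators of respiratory genes, HAP3 rose (0.98 ± 0.24) and HAP1 (-0.79 ± 0.15) and HAP4 (-0.49 ± 0.15) fell. In YEPD no gene passed in the lists of assembly, ubiquinol, cytochrome c and the peptidase, and HAP5 alone of the activators rose (0.77 ± 0.21).

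The neighbouring complexes were read in the same way. Of 9 tested nuclear genes of cytochrome c oxidase, 4 rose and 0 fell in minimal medium, led by COX9 (1.14 ± 0.24), and 2 rose in YEPD (COX9 by 1.34 ± 0.24 and COX5A by 0.91 ± 0.17). Of 16 nuclear genes of ATP synthase and its inhibitors, 9 rose in minimal medium, led by ATP20 (1.57 ± 0.32), and 1 fell, the catalytic beta subunit ATP2 (-0.39 ± 0.11). In YEPD 3 of these rose, led by ATP19 (1.37 ± 0.25). The median log2 changes in minimal medium were 0.39 for the oxidase and 0.55 for the synthase, beside 0.24 for the bc1 members. Over all genes in that medium, the median was 0.54 under 400 bases and 0.40 from 400 to 800 bases. The part of gene length in the changes of these lists was not tested. Of the 5 other mitochondrial mRNAs tested, COX2 (1.65 ± 0.17) and OLI1 (1.04 ± 0.15) rose and COX1 (-0.81 ± 0.24), COX3 (-1.07 ± 0.29) and ATP6 (-1.19 ± 0.31) fell in minimal medium. COB thus fell together with 3 of these 5 in that medium, and its value of -1.42 was the lowest of the 6 there. In YEPD COX2 and OLI1 rose by 1.60 each, and COX1, COX3 and ATP6 did not pass (adjusted p = 0.0588, 0.0806 and 0.0507 by limma). The lowest change of these 5 in YEPD was nevertheless -1.14, below the -0.98 of COB in that medium.

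**Figure D5:**
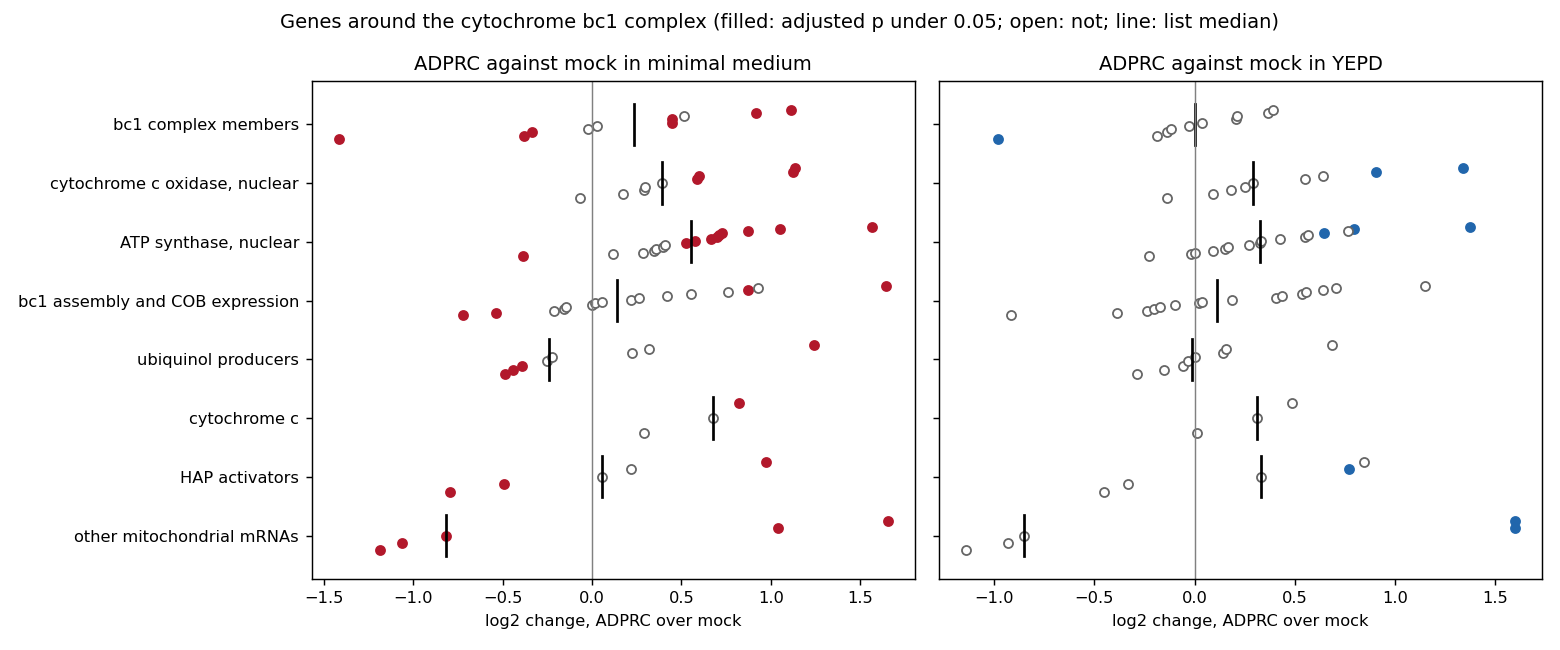
The log2 change after ADPRC (horizontal axis) of each tested gene in 8 lists around the complex, in minimal medium (left) and YEPD (right); filled points passed an adjusted p of 0.05, open ones did not, and vertical lines are list medians. The bc1 members spread from -1.42 to 1.11 in minimal medium around a median of 0.24, and the ATP synthase list has 9 filled points to the right of 0.

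Over the 12 libraries, the genes whose log2 values were most like those of COB were SVF1 (Pearson's r = 0.97), YPD1 (0.97) and KGD1 (0.96), and those most like RIP1 were COX18 (0.95), YPL229W (0.95) and DBP5 (0.94). These correlations across 12 libraries in 4 groups describe the pattern only, since medium and treatment are shared by all genes.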

How the data were processed

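The deposited table has 12 columns, each matched to a library, and 0 columns of other samples. The authors' values are a signal described only as normalized, per the file headers. On the values themselves, 100% in every column were whole multiples of that column's smallest step (tolerance 0.01 reads), as read counts scaled by 1 factor would be. Tools listed in the submitters' processing notes are FastQC, Trimmomatic, Bowtie, HTSeq and DESeq. The sources used here do not give versions, build, annotation or the use of strand.

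Values were taken as log2(value + 1), a pseudocount of 1. The filter was an average of 10 or more across libraries (5490 genes, all 10 members among them). Means of the 4 groups and 5 contrasts were estimated by limma 3.58.1 (R 4.3.3) with trend and robust options. Recovered reads were also tested with edgeR 4.0.16 (quasi-likelihood) and DESeq2 1.42.0 in 11 libraries, without YEPD mock replicate 2, whose step was 1.00. In minimal medium edgeR called 614 genes higher and 597 lower, and DESeq2 587 and 624. On simulated data for ADPRC against mock in minimal medium, limma recovered 89.9% of 2-fold changes among 5429 genes, and 7.77% of its calls were false. The simulation used YEPD mock means, 1 fixed spread for all genes and no outlying library, so it does not give the power in these data. Gene names and lengths are those of RefSeq R64, in which 5919 identifiers were found; no coordinates or sequences were used.

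All members are named. Of each list, the genes with the largest rise and fall past the threshold after ADPRC are named, and further called genes were picked after their values were seen. Members and lists were chosen with earlier results of these data known. A value of 0 is 0 counted reads and does not exclude an expected count of up to 3, and PCR copies cannot be told apart.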

Additional observations from a re-analysis of the deposited data

How the results depend on the processing

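Scaling changed the directions between media. With the same total per library, the ADPRC libraries of minimal medium had 7 members higher and 1 lower than mock, and COR1, QCR2 and QCR6 turned to 0.10, 0.051 and 0.41. Of the 5490 genes tested, 2488 were then higher and 49 lower. Between media at that scaling, 5192 of all genes were higher in ADPRC libraries and 5004 in mock libraries. In that setting 10 members were higher and 0 lower in minimal medium against YEPD in ADPRC libraries (COB 0.78, COR1 1.08, QCR2 1.06, CYT1 1.35, RIP1 1.43, QCR6 1.36 and QCR7 1.47), and 10 were higher in mock libraries (COB 0.98, COR1 0.99, QCR2 1.06, CYT1 0.97, RIP1 0.94, QCR6 1.12, QCR7 1.14 and QCR10 0.84), each reversed from the authors' scaling. With the same total outside ribosomal DNA frames, 1 member was higher and 1 lower in minimal medium, 0 were lower in YEPD, and 0 were lower between media in ADPRC libraries, a count that was also 0 with TMM and with quantile normalization. The cause was not tested.

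After ADPRC in minimal medium, 2 members were higher without trend and robust estimation, and 0 with the length trend removed, where QCR7 was at -0.066. The edgeR and DESeq2 fits, on 11 libraries, also had 2 higher, as did limma without the library they leave out (YEPD mock replicate 2). The YEPD count of lower members was 0 without trend and robust estimation and with only the libraries of the contrast. The difference between media had 2 higher and 2 lower members with weights per library, beside 527 higher and 576 lower of all genes. Between media in ADPRC libraries, 0 members were higher without trend and robust estimation and with only the libraries of the contrast, and 2 with weights per library. Of all genes, 366, 264 and 1082 were higher in these fits in turn. In that comparison 0 were lower with only the libraries of the contrast. With edgeR and DESeq2 on 11 libraries 0 were higher and 0 lower there, against 0 higher and 2 lower with limma without YEPD mock replicate 2. In mock libraries 4 were lower with weights per library and with only the libraries of the contrast, beside 2059 and 1966 of all 5490 genes.

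Leaving out each of the 12 libraries in turn, the counts in minimal medium were 0 to 5 members higher and 1 to 3 lower than mock, and 0 to 1 lower in YEPD. They were 0 to 2 higher and 0 to 2 lower for the difference between media, 0 to 3 higher and 2 to 3 lower in ADPRC libraries, and 0 to 4 lower in mock libraries between media. Counts over all genes in the same fits were 0 to 492 higher and 0 to 556 lower for the difference. Between media they were 283 to 1011 higher and 773 to 2162 lower in ADPRC libraries, and 757 to 2084 lower in mock libraries.

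No pairing by replicate number was seen in the deviations of ADPRC and mock libraries from their group means. Same-numbered libraries correlated at -0.023, -0.086 and -0.059 in minimal medium, and at -0.036 and -0.15 in YEPD. So few libraries cannot exclude that the numbers mark pairs. With the number as a block, 1 member (COB) was lower in minimal medium and 0 in YEPD. QCR7, QCR9 and QCR10 were higher in minimal medium in this fit (adjusted p = 0.0472, 0.0301 and 0.0498 by limma). Over all genes it called 471 higher and 349 lower in minimal medium, and 26 higher and 0 lower in YEPD. Across media (a fit added after seeing the data) 0 members were higher in ADPRC libraries. COB and COR1 were lower there (adjusted p = 0.0448 and 0.0492 by limma), beside 267 higher and 609 lower of all genes.

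Over all genes, the counts of 780 higher and 803 lower in minimal medium ranged from 337 to 2488 and from 49 to 1443 over all settings and left-out libraries, and the counts of 270 and 30 in YEPD from 26 to 617 and from 0 to 492. The lowest 337 was without minimal ADPRC replicate 2, and 617 and 492 were without YEPD ADPRC replicate 3. Depth limits QCR9 and QCR10 most, with 12 to 30 reads in minimal mock libraries.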
